A study of Mus musculus with 4 samples.

Results

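The inner hair cell and ribbon synapse genes are a fixed set of 9 genes (Otof, Slc17a8, Cabp2, Cacna1d, Atp2a3, Bsn, Pclo, Rims2 and Dnajc5b), each taken as its own row among the 17816 genes with a value in the tables. All 9 had a value, and 7 averaged 0.5 FPKM or more across all 4 libraries and entered the test. FPKM counts fragments relative to transcript length and to the size of the library, so levels can be compared between genes. Whole cochleae of C57BL/6 mice at postnatal day 10 were sequenced, as 2 wild-type libraries and 2 Zbtb20 knockout libraries. The knockout is labelled F/F at Zbtb20 and the wild type +/+. Every library also carries a cre driver, spelled FoxG2-cre for replicate 2 and FoxG3-cre for replicate 3 of both genotypes. The cochlear cells in which the driver was active are not given in the sources used here, nor is the number of animals behind a library, so the spread between libraries may be technical. Zbtb20, which encodes a zinc finger transcription factor, was at 10.94 and 10.67 FPKM in wild-type cochleae against 7.35 and 7.41 FPKM in knockout cochleae, and so was still read in the knockout. The exons that the knockout removes are not given in the sources used here.

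Inner hair cells are the sensory receptors that pass sound to the spiral ganglion neurons. Their presynaptic sites carry a ribbon, an electron-dense body that tethers glutamate-filled vesicles beside clustered L-type calcium channels. Calcium entering through these channels triggers release, for which the ferlin protein otoferlin is required in place of the synaptotagmins used at most neuronal synapses. In rodents the second postnatal week is the time around the onset of hearing, when these synapses mature.

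In the knockout the vesicular glutamate transporter gene Slc17a8, the otoferlin gene Otof, the calcium pump gene Atp2a3 and the chaperone gene Dnajc5b were lower in both libraries than in either wild-type library. The calcium channel gene Cacna1d was higher in both, and the other 4 genes overlapped between genotypes. Of the 7 tested, Atp2a3 alone passed the test over all genes. A split with both knockout libraries below both wild-type libraries was found in 16.1% of all genes with a value, and the opposite split in 33.3%.

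**Figure D1:**
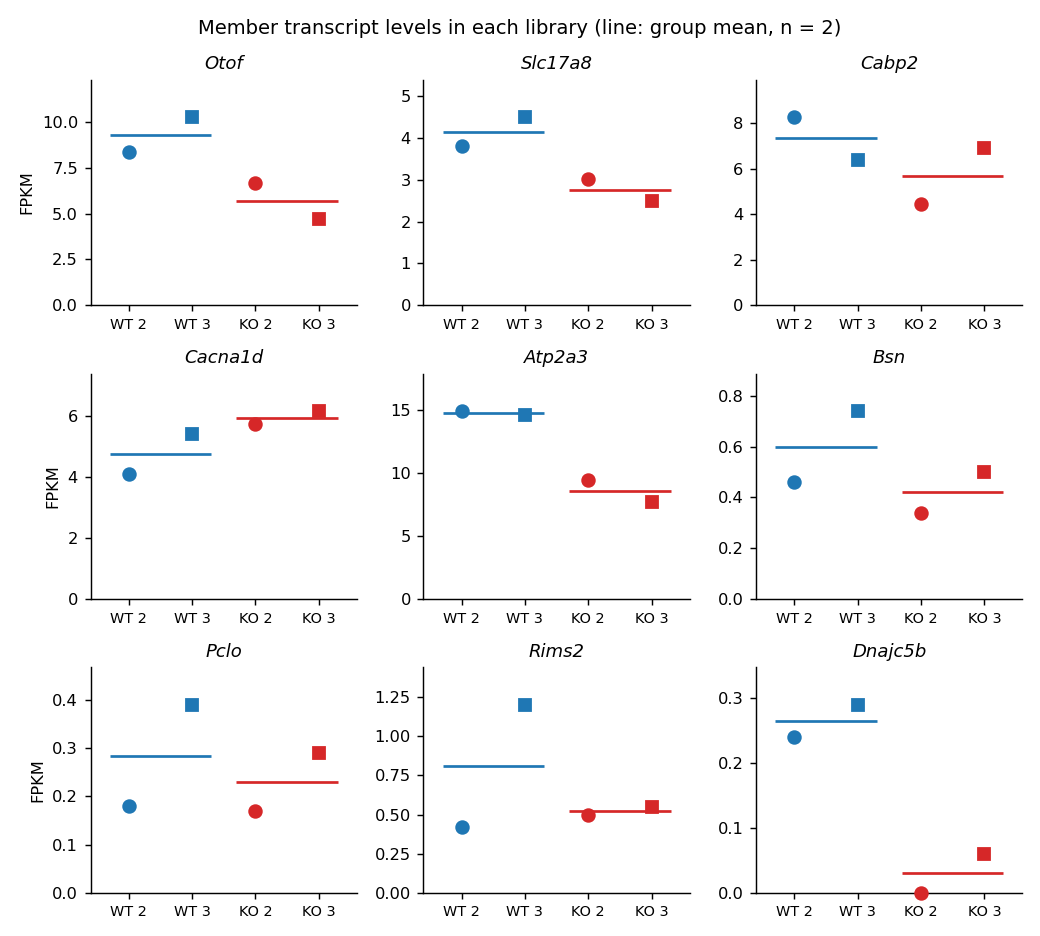
FPKM of each of the 9 genes (y axis, from 0, a different scale per panel) in wild-type (WT, blue) and knockout (KO, red) replicates 2 (circles) and 3 (squares), with a line at each group mean. Otof, Slc17a8, Atp2a3 and Dnajc5b have both knockout points below both wild-type points, and Cacna1d has them above.

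The promoters of 6 of the 9 genes are in the RefSeq promoter table for GRCm38.p6, the assembly of the authors' mm10 build. Shown here are the 250 bases before each listed start of the gene that passed the test (Atp2a3), of a gene lower in both knockout libraries without passing it (Slc17a8), and of the gene on the opposite side (Cacna1d). Capitals mark matches, on either strand and overlaps included, to the GC box GGGCGG, the E-box CAGCTG, the TATA box TATAAA and the T-box element AGGTGTGA.
Atp2a3, chr11:72960919-72961168, plus strand: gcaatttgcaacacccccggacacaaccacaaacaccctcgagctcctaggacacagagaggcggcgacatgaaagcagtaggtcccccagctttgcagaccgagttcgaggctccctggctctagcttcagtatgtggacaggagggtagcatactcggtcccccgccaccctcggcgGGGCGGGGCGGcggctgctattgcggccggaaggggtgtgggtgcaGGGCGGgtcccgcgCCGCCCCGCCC
Slc17a8, first listed start, chr10:89621250-89621499, minus strand: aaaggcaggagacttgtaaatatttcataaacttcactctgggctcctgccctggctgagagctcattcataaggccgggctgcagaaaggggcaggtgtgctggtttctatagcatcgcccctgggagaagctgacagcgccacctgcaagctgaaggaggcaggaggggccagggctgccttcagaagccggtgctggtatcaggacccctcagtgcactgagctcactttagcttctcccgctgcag
Slc17a8, second listed start, chr10:89599816-89600065, minus strand: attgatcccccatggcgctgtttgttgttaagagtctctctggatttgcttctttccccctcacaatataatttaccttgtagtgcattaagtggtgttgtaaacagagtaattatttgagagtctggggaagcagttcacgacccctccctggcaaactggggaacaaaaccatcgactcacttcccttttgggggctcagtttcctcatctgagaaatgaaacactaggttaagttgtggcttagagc
Cacna1d, first listed start, chr14:30491157-30491406, minus strand: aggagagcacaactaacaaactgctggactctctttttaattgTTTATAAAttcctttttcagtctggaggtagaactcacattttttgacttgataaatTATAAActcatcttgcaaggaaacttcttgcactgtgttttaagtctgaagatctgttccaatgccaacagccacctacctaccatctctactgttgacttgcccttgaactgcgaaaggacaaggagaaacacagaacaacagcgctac
Cacna1d, second listed start, chr14:30353487-30353736, minus strand: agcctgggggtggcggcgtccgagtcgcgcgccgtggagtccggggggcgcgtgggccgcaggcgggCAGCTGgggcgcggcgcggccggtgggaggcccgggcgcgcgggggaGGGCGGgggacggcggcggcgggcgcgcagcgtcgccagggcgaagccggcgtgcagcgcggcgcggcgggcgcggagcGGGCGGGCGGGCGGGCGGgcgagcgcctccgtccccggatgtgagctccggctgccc

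These windows were unlike in base composition. The Atp2a3 window was 66.8% G or C with 20 CpG dinucleotides and 5 GC boxes, and the second Cacna1d window was 86.4% G or C with 50 CpG, 5 GC boxes and 1 E-box. The Slc17a8 windows held 5 and 3 CpG and no match to any of the 4 motifs, and the first Cacna1d window held 2 CpG and 3 TATA box matches. The median window of the table holds 6 CpG. A GC box is in 32.7% of all 32851 windows, the E-box in 13.0%, the TATA box in 12.4% and the T-box element in 1.12%. A match is a run of letters and not a shown binding site.

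Atp2a3 encodes SERCA3, a pump that returns calcium from the cytosol to the endoplasmic reticulum. Its GRCm38 position is chromosome 11, 72961169 to 72993044, plus strand. It was the most abundant of the 9 genes. Its level was 14.89 and 14.62 FPKM in wild-type replicates 2 and 3 against 9.42 and 7.65 FPKM in knockout replicates 2 and 3. The groups did not overlap, and the gap between them was larger than the spread within either. On the log2(FPKM + 1) scale Atp2a3 fell by 0.73 ± 0.11 (SE, n = 2 per group), the wild-type mean being 1.73-fold the knockout mean (adjusted p = 0.0341, limma). It was the only one of the 7 tested members called, against 4.43% of the 13966 tested genes called in either direction, 2.04% called lower and 2.38% called higher. The call was lost without any 1 library, with adjusted p between 0.0649 and 0.211 and log2 fold changes from -0.86 to -0.6, and also without the filter on low values (adjusted p = 0.0782).

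SERCA3 is also known from blood platelets and other blood cells, so their markers are given beside it. The 12 blood and platelet markers summed to 1016 and 794.1 FPKM in wild-type cochleae against 601.5 and 592.3 FPKM in knockout cochleae, most of it globin transcripts. The platelet glycoprotein gene Gp1bb was at 12.43 and 10.05 FPKM in wild-type cochleae against 8.09 and 5.7 FPKM in knockout cochleae. Gp1bb did not pass the test, while Pf4, the platelet factor gene, rose by 0.93 ± 0.17 (adjusted p = 0.0493, limma). Of the 12 markers, 7 were lower in both knockout libraries and 1 was higher, beside 16.1% and 33.3% of all genes with a value. Of these markers 1 (Gp9) was listed at 0 in a library. Ppbp, Gp9 and Treml1 averaged 0.3125, 0.1025 and 0.1475 FPKM over the 4 libraries, against 9.068 FPKM for Gp1bb. These 3 were under the 0.5 FPKM minimum and overlapped between genotypes, so Gp1bb may not stand for platelet RNA alone. The ratio of Atp2a3 to Gp1bb was 1.2 and 1.45 in wild-type cochleae against 1.16 and 1.34 in knockout cochleae, so the groups overlapped on that scale. Its ratio to the platelet integrin gene Itga2b was 5.7 and 6.38 in wild-type cochleae against 4.53 and 4.14 in knockout cochleae, where they did not. The part of blood cells in the Atp2a3 result was not tested.

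Otof encodes otoferlin, the large ferlin protein that binds calcium through its C2 domains and is needed for vesicle fusion and resupply in inner hair cells. Its position is chromosome 5, 30367062 to 30461932, minus strand. It was at 8.36 and 10.26 FPKM in wild-type replicates 2 and 3 against 6.67 and 4.72 FPKM in knockout replicates 2 and 3. Both knockout libraries were below both wild-type libraries, the wild-type mean being 1.63-fold the knockout mean. The log2 fold change was -0.63 ± 0.17 (SE, n = 2 per group; 95% interval -1.07 to -0.19), which did not pass over all genes (adjusted p = 0.123, limma). Over 11 alternative settings its log2 fold change lay between -0.84 and -0.42 and its adjusted p between 0.0518 and 0.421.

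Slc17a8 encodes VGLUT3, the transporter that loads glutamate into the synaptic vesicles of inner hair cells. Its position is chromosome 10, 89574020 to 89621253, minus strand. Its level was 3.81 and 4.49 FPKM in wild-type cochleae against 3.02 and 2.5 FPKM in knockout cochleae, again without overlap. The log2 fold change was -0.45 ± 0.13 (95% interval -0.78 to -0.13), the wild-type mean being 1.5-fold the knockout mean, and did not pass (adjusted p = 0.129, limma). Otof and Slc17a8 shared their order of libraries, with knockout replicate 3 lowest, then knockout replicate 2, wild-type replicate 2 and wild-type replicate 3. The ratio of Otof to Slc17a8 was 2.19 and 2.29 in wild-type cochleae against 2.21 and 1.89 in knockout cochleae, which overlapped between genotypes.

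Dnajc5b encodes a cysteine string protein, of a family of vesicle chaperones with a J domain. Its position is chromosome 3, 19508595 to 19610862, plus strand. It stood at 0.24 and 0.29 FPKM in wild-type cochleae, at 0.06 FPKM in knockout replicate 3, and was listed at 0 in knockout replicate 2. With the depth estimated from the values, these levels stand for about 4 and 5 fragments in wild-type cochleae against 1 in knockout replicate 3. The gene was below the 0.5 FPKM minimum and was tested only without that filter, with a value of -0.3 ± 0.05 on the log2 scale (adjusted p = 0.0945, limma). Among genes below the minimum that were above 0 in some library, 13.1% had both knockout libraries below both wild-type libraries. Its paralog Dnajc5, the widely expressed member of the family, was at 41.29 and 48.03 FPKM in wild-type cochleae against 52.66 and 51.13 FPKM in knockout cochleae.

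Cacna1d encodes the pore subunit of CaV1.3, the L-type channel that carries most of the presynaptic calcium current of inner hair cells. Its position is chromosome 14, 30039939 to 30491455, minus strand. It was at 4.11 and 5.42 FPKM in wild-type cochleae against 5.75 and 6.17 FPKM in knockout cochleae. Both knockout libraries were above both wild-type libraries, by less than the gap between the wild-type libraries themselves. The log2 fold change was 0.28 ± 0.14, with a 95% interval from -0.07 to 0.63 (adjusted p = 0.302, limma). With wild-type replicate 2 left out it was 0.12, and with wild-type replicate 3 left out 0.45. In the table of annotated exons, 4.67% of the Cacna1d exon bases lie in exons of Chdh on the other strand. The ratio of Cacna1d to Otof was 0.492 and 0.528 in wild-type cochleae against 0.862 and 1.31 in knockout cochleae. That ratio was higher in both knockout libraries, and so was the ratio to Slc17a8, at 1.08 and 1.21 in wild-type cochleae against 1.9 and 2.47 in knockout cochleae. Both orders follow from the opposite splits of the single genes and are no further evidence.

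Cabp2 encodes a calcium-binding protein that in mouse inner hair cells keeps CaV1.3 channels from inactivating. Its position is chromosome 19, 4081578 to 4087340, plus strand. It was at 8.26 and 6.4 FPKM in wild-type cochleae against 4.46 and 6.92 FPKM in knockout cochleae, so the groups overlapped. Its log2 fold change was -0.33 ± 0.21 with a 95% interval from -0.86 to 0.2 (adjusted p = 0.401, limma). Without knockout replicate 2 it was -0.06, and without knockout replicate 3 it was -0.6. Without wild-type replicate 2 it was -0.17, and without wild-type replicate 3 it was -0.49, so its size moved with the library left out.

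Bsn, Pclo and Rims2 encode proteins of the presynaptic active zone. Bassoon, the product of Bsn, anchors the ribbon to the membrane, piccolo (Pclo) is its large relative, which ribbon synapses contain as a short form, and RIM2 (Rims2) promotes a large number of calcium channels at the release site. Bsn was at 0.46 and 0.74 FPKM in wild-type replicates 2 and 3 against 0.34 and 0.5 FPKM in knockout replicates 2 and 3. Pclo was at 0.18 and 0.39 FPKM in wild-type cochleae against 0.17 and 0.29 FPKM in knockout cochleae. Rims2 was at 0.42 and 1.2 FPKM in wild-type cochleae against 0.5 and 0.55 FPKM in knockout cochleae. In all 3 genes the groups overlapped, with wild-type replicate 3 the highest library.

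The fitted log2 fold change of Bsn was -0.17 ± 0.16 (95% interval -0.57 to 0.23, adjusted p = 0.564, limma). That of Rims2 was -0.21 ± 0.23 (95% interval -0.8 to 0.37, adjusted p = 0.621, limma). Without wild-type replicate 2 these values were -0.3 for Bsn and -0.53 ± 0.16 for Rims2 (adjusted p = 0.134), and without knockout replicate 2 they were -0.09 and -0.19. Pclo, under the 0.5 FPKM minimum, was at -0.06 ± 0.1 without the filter (adjusted p = 0.784). With wild-type replicate 3 left out, Rims2 had a knockout mean of 0.525 FPKM against 0.42 FPKM in the remaining wild-type library, and Bsn and Rims2 both dropped below the minimum. These are long transcripts, so low FPKM still stands for many fragments. At the estimated depth Bsn rested on about 98 to 221 fragments per library. Bsn is found on chromosome 9 at 108096022 to 108190384, minus strand, and Pclo is found on chromosome 5 at 14514918 to 14863459, plus strand. Rims2 is found on chromosome 15 at 39198261 to 39684372, plus strand. Values are for the whole gene, so the short form of piccolo was not measured apart.

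The active zone genes are also expressed by neurons, and the amount of neuronal transcript differed between libraries. The sum over 14 spiral ganglion neuron markers was 133.1 FPKM in wild-type replicate 2, 357.3 in wild-type replicate 3, 93.12 in knockout replicate 2 and 184.1 in knockout replicate 3. From low to high, this sum placed the libraries as knockout 2, wild type 2, knockout 3 and wild type 3. Bsn and Pclo placed the 4 libraries in the same order. Rims2 also had wild-type replicate 3 highest, with wild-type replicate 2 lowest. Otof, Slc17a8, Atp2a3, Cacna1d and Dnajc5b placed the libraries by genotype instead. The neuron markers did not move as one, as the transcription factor gene Isl1 rose (adjusted p = 0.0189, limma) while the neurofilament gene Nefl was at 29.81 and 85.33 FPKM in wild-type cochleae against 8.59 and 32.05 FPKM in knockout cochleae. None of the 14 was at 0. The part of neuronal RNA in these 3 genes was not tested.

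**Figure D2:**
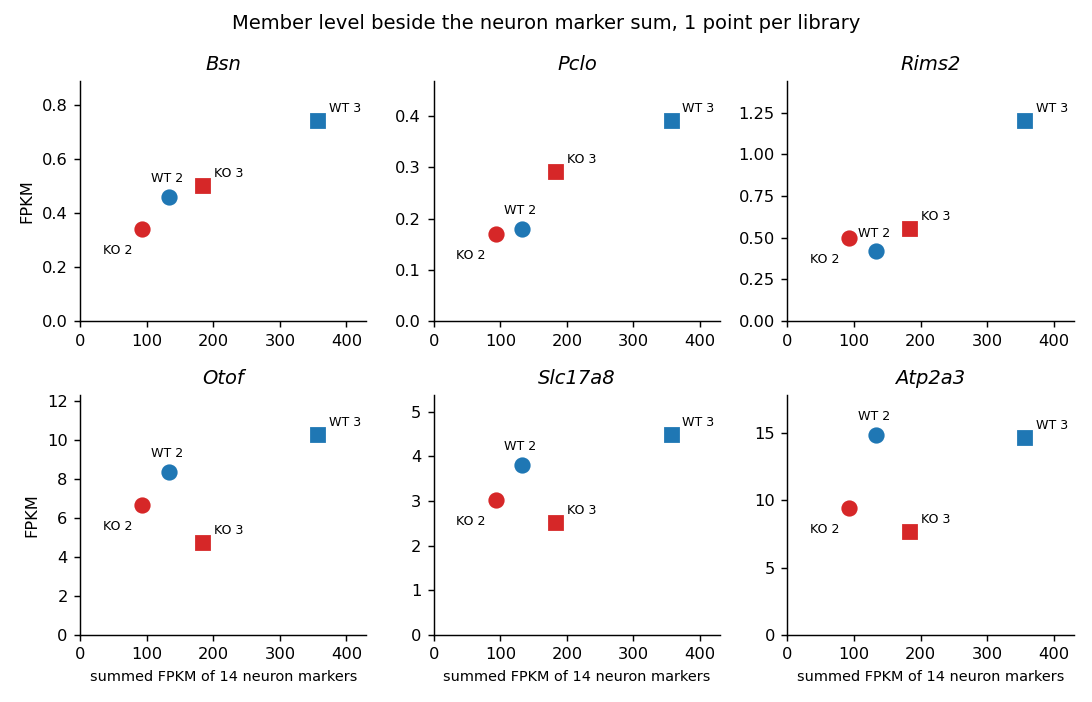
FPKM of 6 of the 9 genes (y axis, from 0) against the summed FPKM of 14 neuron markers (x axis), 1 point per library, with wild type in blue, knockout in red, replicate 2 as circles and replicate 3 as squares. Bsn, Pclo and Rims2 are highest in wild-type replicate 3, where the sum is 357.3 FPKM, while Otof, Slc17a8 and Atp2a3 separate by genotype at both high and low sums.

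**Figure D3:**
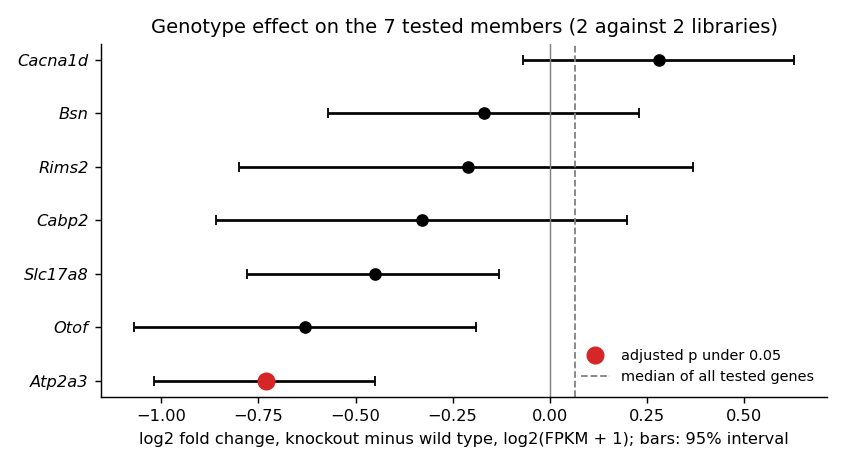
Log2 fold change (x axis, knockout minus wild type on the log2(FPKM + 1) scale) of the 7 tested genes, with 95% intervals from the limma fit and a red point for adjusted p under 0.05. The intervals of Atp2a3, Otof and Slc17a8 lie below 0, and only Atp2a3 (-0.73) passed after adjustment over all genes.

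Over the 7 tested members the median log2 fold change was -0.33, with 6 of 7 below 0. Over all 13966 tested genes the median was 0.06, with 5128 below 0. At an unadjusted p under 0.05, 3 members were lower (Atp2a3, Otof and Slc17a8) and 0 higher, where 22.0% of tested genes reached that level and 7.74% were lower. With 2 libraries against 2, an exact two-sided permutation test of a single gene cannot give a p under 0.333, so the adjusted p values rest on the spread that limma shares between genes. In order of their mean over the 4 libraries, the levels were Atp2a3 (11.64 FPKM), Otof (7.502), Cabp2 (6.51), Cacna1d (5.363), Slc17a8 (3.455), Rims2 (0.6675), Bsn (0.51), Pclo (0.2575) and Dnajc5b (0.1475). Neighbours in this order overlapped in their 4-library ranges, except that Slc17a8 (2.5 to 4.49 FPKM) lay wholly above Rims2 (0.42 to 1.2 FPKM).

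A whole cochlea holds few hair cells, and in a bulk sample fewer cells of a type cannot be told apart from less RNA per cell. The 16 measured pan hair cell markers were therefore set beside the members. They summed to 87.28 and 79.07 FPKM in wild-type cochleae against 75.7 and 72.11 FPKM in knockout cochleae. Of the 14 that were tested, 12 had a log2 fold change below 0, beside 5128 of all 13966 tested genes. Of these 14 markers 0 passed in either direction (limma), and the median was -0.17. At an unadjusted p under 0.05, 3 were lower and 1 was higher. Myo7a, the gene of a stereocilia myosin, was at 4.01 and 4.61 FPKM in wild-type cochleae against 3.23 and 3.44 FPKM in knockout cochleae. No marker of the list was at 0 in a library.

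Each member was then expressed as a percentage of the summed markers in its own library. Otof stood at 9.58% and 13.0% of the sum in wild-type cochleae against 8.81% and 6.55% in knockout cochleae. Slc17a8 stood at 4.37% and 5.68% in wild-type cochleae against 3.99% and 3.47% in knockout cochleae. Atp2a3 stood at 17.1% and 18.5% in wild-type cochleae against 12.4% and 10.6% in knockout cochleae. The groups still did not overlap for these 3 genes, but for Otof and Slc17a8 the gap between the nearest libraries was smaller than the gap between the wild-type libraries. Cacna1d stood at 4.71% and 6.85% in wild-type cochleae against 7.6% and 8.56% in knockout cochleae. Of the 9 genes, 4 were below, 1 was above and 4 overlapped on this scale, on which 8.41% of all genes with a value were below and 51.6% above. The counts were the same with the marker sum taken without Cib2, its most abundant gene, and with Myo7a alone as the denominator. No other single marker was tried as the denominator, and some fell more than Myo7a. Pou4f3 was at 10.13 and 7.43 FPKM in wild-type cochleae against 6.19 and 5.5 FPKM in knockout cochleae. Its wild-type mean was 1.5-fold the knockout mean and that of Gfi1 1.48-fold, beside 1.5-fold for Slc17a8. Of the 16 markers 9 were lower in both knockout libraries and 2 were higher, beside 16.1% and 33.3% of all genes with a value. Relative to Myo7a alone, Otof was at 208% and 223% in wild-type cochleae against 207% and 137% in knockout cochleae, so wild-type and knockout replicate 2 were nearly level. No test was made on these ratios.

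**Figure D4:**
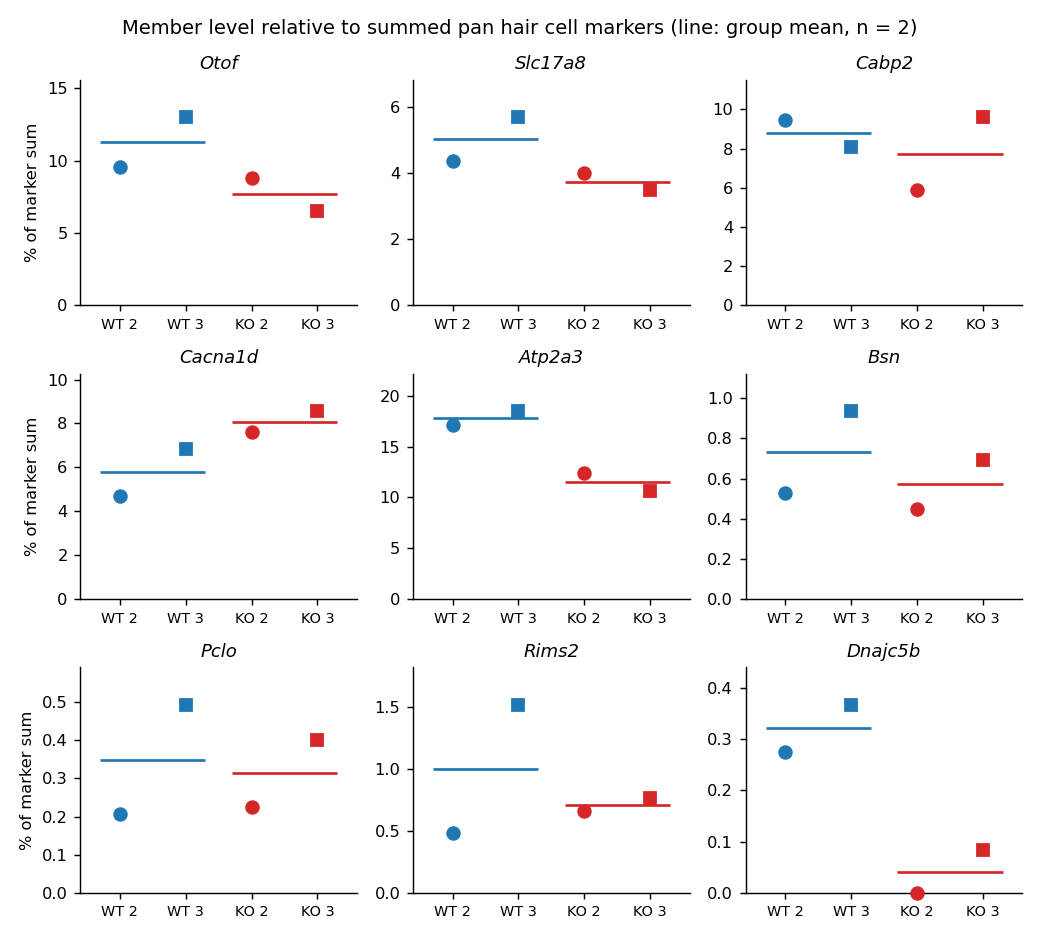
Level of each of the 9 genes as a percentage of the summed FPKM of 16 pan hair cell markers in the same library (y axis, from 0, a different scale per panel), with wild type (WT) in blue, knockout (KO) in red, circles for replicate 2, squares for replicate 3 and a line at each group mean. For Atp2a3 the gap between genotypes is wider than the spread within them, at 17.1% and 18.5% against 12.4% and 10.6%.

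Markers of outer hair cells gave a further reference within the sensory epithelium. Of 8 such genes 6 were tested and 0 passed (limma), and at an unadjusted p under 0.05 there were 3 lower and 0 higher. Their median log2 fold change was -0.26. Of all 8, 4 were lower in both knockout libraries and 3 were higher, beside 16.1% and 33.3% of all genes with a value. The 3 higher were Ikzf2 and, under the 0.5 FPKM minimum, Insm1 and Bcl11b. Ocm, the most abundant of the 8, overlapped, at 159.66 and 138.11 FPKM in wild-type cochleae against 130.77 and 139.81 FPKM in knockout cochleae. Slc26a5, the gene of the outer hair cell motor protein prestin, was at 7.08 and 6.61 FPKM in wild-type cochleae against 5.73 and 5.13 FPKM in knockout cochleae. The ratio of Otof to Slc26a5 was 1.18 and 1.55 in wild-type cochleae against 1.16 and 0.92 in knockout cochleae. The groups did not overlap on that ratio, and replicate 2 of the 2 genotypes was nearly level. Chrna9, the marker of this list with the lowest p, was at 2.61 and 2.68 FPKM in wild-type cochleae against 1.54 and 1.55 FPKM in knockout cochleae (adjusted p = 0.0675, limma). Its wild-type mean was 1.71-fold the knockout mean, beside 1.63-fold for Otof and 1.26-fold for Slc26a5. So the fall of Otof was not larger than that of every outer hair cell marker.

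Markers of other cell types were also read, and some but not all of them moved with genotype. All 8 Schwann cell myelin markers fell (limma), and their sum was 7043 and 3928 FPKM in the wild type against 511 and 865.6 FPKM in knockout cochleae. Skeletal muscle markers summed to 389.5 FPKM in wild-type replicate 2 and to 1.81, 4.03 and 2.54 FPKM in wild-type replicate 3 and knockout replicates 2 and 3, with 3 of the 10 at 0 in some library. Atp2a3 was at 14.89 FPKM in wild-type replicate 2 and at 14.62 FPKM in wild-type replicate 3. Of 3 otoconial and macular genes, Oc90, which encodes an otoconial matrix protein, rose from 147.9 and 131.1 FPKM to 411.8 and 318.3 FPKM (adjusted p = 0.0129, limma). The other two, the otopetrin gene Otop1 and the otogelin gene Otog, did not pass (adjusted p = 0.172 and 0.0849), with log2 fold changes of -1.06 and -0.39 and both knockout libraries below both wild-type libraries. The 6 endothelial markers summed to 272.1 and 267.1 FPKM in wild-type cochleae against 256.4 and 268.1 FPKM in knockout cochleae, with 0 of 6 called. Of 8 tested supporting cell markers 2 fell and 1 rose. What part these shifts have in the members' values was not tested.

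Other genes of the inner hair cell and its afferent synapse were read in 7 further lists, in which 5 genes passed in all. Among all 13966 tested genes 4.43% were called, 2.04% lower and 2.38% higher. No test of a list as a whole was made. In the list of inner hair cell identity and ion channel genes, 2 of 8 tested genes fell and 0 rose, with a median log2 fold change of -0.51. Shtn1, which encodes shootin-1, a protein of neurite outgrowth, was at 10.22 and 10.62 FPKM in wild-type cochleae against 5.15 and 5.26 FPKM in knockout cochleae. It fell by 0.88 ± 0.08 (adjusted p = 0.0114, limma). Kcna10, a voltage-gated potassium channel gene expressed in hair cells of the mouse inner ear, was at 4.71 and 4.93 FPKM in wild-type cochleae against 2.42 and 2.07 FPKM in knockout cochleae (log2 fold change -0.84 ± 0.11, adjusted p = 0.023). Kcnn2, the gene of the SK2 channel of developing and outer hair cells, was at 13.26 and 17.4 FPKM in wild-type cochleae against 11.47 and 6.86 FPKM in knockout cochleae (adjusted p = 0.185). Shtn1 and Kcna10 kept their calls without either wild-type library and lost them without either knockout library, and Kcna10 also lost it without the filter on low values.

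In the ribbon and active zone list 0 of 20 tested genes passed (limma), and at an unadjusted p under 0.05 there were 3 higher and 2 lower. Ctbp2, whose locus encodes the ribbon protein RIBEYE from an alternative start, was at 18.22 and 20.25 FPKM in wild-type cochleae against 22.75 and 25.0 FPKM in knockout cochleae (adjusted p = 0.149). A gene-level value mixes RIBEYE with the widely expressed corepressor CtBP2. Kif1a, the gene of an axonal kinesin, was at 17.89 and 27.06 FPKM in wild-type cochleae against 6.97 and 10.29 FPKM in knockout cochleae (adjusted p = 0.057). Rab3a, which encodes a vesicle-bound small GTPase, was at 30.03 and 42.85 FPKM in wild-type cochleae against 18.82 and 23.05 FPKM in knockout cochleae (adjusted p = 0.101). Without wild-type replicate 2 the list had 3 calls.

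Among calcium channel subunits and calcium-binding regulators 0 of 13 tested genes passed (limma), and at an unadjusted p under 0.05 there were 1 lower and 0 higher. Cabp1, a relative of Cabp2, was at 5.1 and 10.57 FPKM in wild-type cochleae against 1.53 and 3.77 FPKM in knockout cochleae, a log2 fold change of -1.27 ± 0.41 (adjusted p = 0.163). Cacnb2, the gene of the beta subunit used by the inner hair cell channel, was at 1.24 and 1.85 FPKM in wild-type cochleae against 2.18 and 2.35 FPKM in knockout cochleae (adjusted p = 0.243). Cacnb3, another beta subunit gene, was at 34.8 and 40.93 FPKM in wild-type cochleae against 43.38 and 45.67 FPKM in knockout cochleae (adjusted p = 0.246). Cacnb2 and Cacnb3, like Cacna1d, were higher in both knockout libraries, a split found in 37.9% of all tested genes. In this list 4 of the 13 tested genes had that split. Of the 2 other beta subunit genes of the list, Cacnb1 was lower in both knockout libraries, at 9.51 and 7.97 FPKM against 7.8 and 7.67 FPKM (adjusted p = 0.447), and Cacnb4 overlapped between genotypes.

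Of 15 tested genes for calcium pumps, exchangers and buffers, 0 passed (limma), and at an unadjusted p under 0.05 there were 5 lower and 0 higher. Itpr1 and Itpr3, which encode calcium release channels of the endoplasmic reticulum, the store that SERCA pumps fill, had log2 fold changes of -0.46 ± 0.1 (adjusted p = 0.0814) and -0.4 ± 0.09 (adjusted p = 0.0863). Their paralog Itpr2 was on the other side, at 3.15 and 3.68 FPKM in wild-type cochleae against 4.13 and 4.37 FPKM in knockout cochleae. The log2 fold change of Itpr2 was 0.25 ± 0.11 (adjusted p = 0.26, limma). Pvalb, the parvalbumin gene, expressed in inner hair cells and in neurons, was at 46.42 and 75.73 FPKM in wild-type cochleae against 12.9 and 31.82 FPKM in knockout cochleae (adjusted p = 0.139). Atp2a2, the gene of the widespread pump SERCA2, was at 82.8 and 90.63 FPKM in wild-type cochleae against 80.83 and 82.49 FPKM in knockout cochleae. The other SERCA gene of the list, Atp2a1, was at 47.72 FPKM in wild-type replicate 2, the library with high skeletal muscle markers. It was at 0.21 FPKM in wild-type replicate 3 and at 0.67 and 0.2 FPKM in knockout cochleae.

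In the list for vesicle glutamate loading and fusion, 2 of 26 tested genes rose and 0 fell. Syt4, a synaptotagmin gene of developing hair cells and neurons, was at 1.37 and 1.98 FPKM in wild-type cochleae against 6.08 and 6.83 FPKM in knockout cochleae (log2 fold change 1.49 ± 0.15, adjusted p = 0.012, limma). Syt1, the gene of the fast calcium sensor of neuronal synapses, rose by 0.92 ± 0.13 (adjusted p = 0.0289). Syt9, another synaptotagmin gene, was at 2.5 and 2.53 FPKM in wild-type cochleae against 3.99 and 3.5 FPKM in knockout cochleae (adjusted p = 0.106). In Syt1, Syt4 and Syt9 both knockout libraries were above both wild-type libraries, a split found in 37.9% of tested genes. In the 2 other synaptotagmin genes of the list the groups overlapped. Syt2 was at 1.85 and 7.51 FPKM in wild-type cochleae against 0.67 and 2.69 FPKM in knockout cochleae, and Syt7 at 2.18 and 6.12 FPKM against 0.8 and 2.32 FPKM. The median of the list was -0.08. Both calls were lost without either knockout library, and that of Syt1 also without the filter on low values.

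Among otoferlin partners and ferlin family genes 0 of 13 tested genes passed (limma), and at an unadjusted p under 0.05 there were 1 higher and 1 lower. Myof, the myoferlin gene, was at 6.77 and 6.76 FPKM in wild-type cochleae against 9.6 and 9.44 FPKM in knockout cochleae (adjusted p = 0.0542). Dysf, the dysferlin gene, was at 6.32 and 6.0 FPKM in wild-type cochleae against 3.99 and 4.73 FPKM in knockout cochleae (adjusted p = 0.112). Myo6, the gene of a motor protein that binds otoferlin and is present in all hair cells, was at -0.2 ± 0.1 on the log2 scale (adjusted p = 0.328).

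On the postsynaptic side, 1 of 14 tested genes for glutamate receptors and scaffolds rose and 0 fell, with a median of 0.2. Gria3, an AMPA receptor subunit gene, was at 5.74 and 7.08 FPKM in wild-type cochleae against 10.31 and 11.46 FPKM in knockout cochleae (log2 fold change 0.69 ± 0.12, adjusted p = 0.048, limma). Gria1, for another AMPA subunit, was at 0.52 and 0.55 FPKM in wild-type cochleae against 1.4 and 1.31 FPKM in knockout cochleae (adjusted p = 0.061). Gria2, a further AMPA subunit gene, was on the other side, at 2.01 and 2.79 FPKM in wild-type cochleae against 0.89 and 1.15 FPKM in knockout cochleae (log2 fold change -0.74 ± 0.16, adjusted p = 0.0752), and Gria4 overlapped between genotypes. At an unadjusted p under 0.05, 5 genes of the list were higher and 1 was lower. The call for Gria3 was lost under median-of-ratios rescaling, without the filter, without the intensity trend, and without wild-type replicate 2 or either knockout library.

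**Figure D5:**
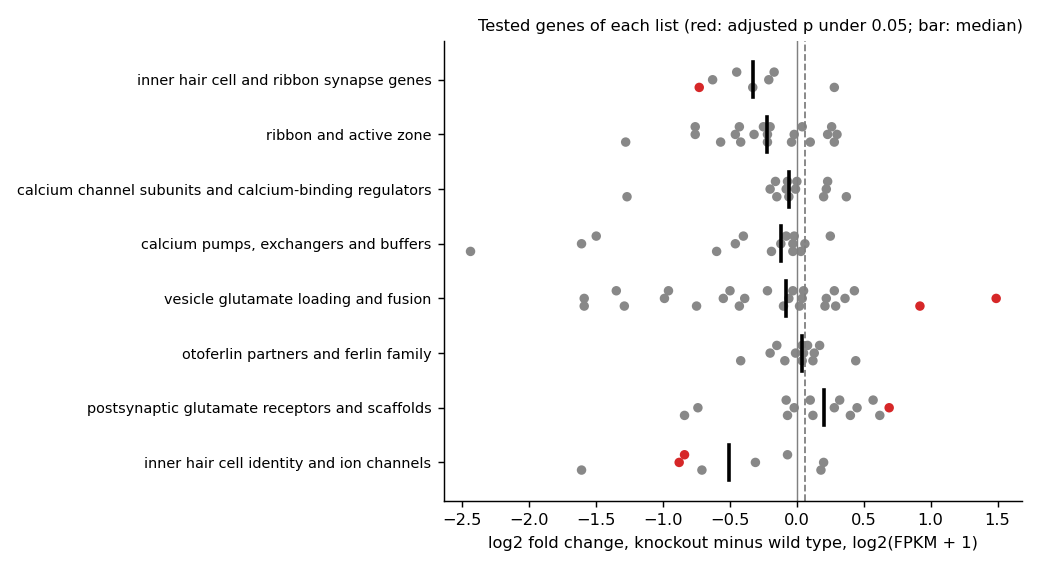
Log2 fold change (x axis, knockout minus wild type on the log2(FPKM + 1) scale) of every tested gene in the inner hair cell and ribbon synapse set and in 7 related lists (y axis), with a black bar at each list's median, red points for adjusted p under 0.05 and a dashed line at the median of all tested genes. Medians run from -0.51 for inner hair cell identity genes to 0.2 for postsynaptic genes, and the set itself lies at -0.33.

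Profiles like the mean of the 7 tested members were sought among 13039 other genes that averaged 1 FPKM or more. After each gene's log2(FPKM + 1) values were centred, the mean profile of the members was at 0.07 in wild-type replicate 2, 0.26 in wild-type replicate 3 and -0.16 in each knockout library. The nearest genes by root mean square difference over the 4 libraries were Ermp1 (0.00602), Paqr4 (0.0146), Slc35f1 (0.0153), Ppp1r27 (0.0171) and Tlcd4 (0.0218). With 4 libraries many genes come this near by their number alone, and 77 lay within 0.05.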

How the data were processed

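The members and gene lists were chosen with earlier results of these data known. Per the file headers, the deposited tables (1 for each library) hold FPKM. The submitters' processing notes name mm10 and the tools RSEM 1.2.12, Bowtie2 2.2.5 and HISAT2 2.0.4, with no roles. The sources used here do not state strand use, so fragments of overlapping genes can be shared, and RSEM divides fragments between paralogs by estimation. Each table had 20777 rows, 2961 of them without a value. Wild-type replicate 2 is repeated as a second FPKM column in every table (4 columns, not used).

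Genes were named by NCBI gene ID in RefSeq, where 17789 of 17816 matched. Genes averaging 0.5 FPKM or more were fitted with limma 3.58.1 in R 4.3.3 on log2(FPKM + 1), with genotype as the 1 term, an intensity trend and Benjamini-Hochberg adjustment over all 13966, two-sided, at 0.05. The pseudocount of 1 understates changes of low genes. Alternatives were pseudocounts of 0.1 and 0.5, no filter, a minimum of 1 FPKM, median-of-ratios rescaling, no trend, a replicate block and leaving out each library.

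Summed FPKM was 391808 to 405144 per library, and 12933 to 13008 genes were above 1 FPKM. Steps between low values placed the depth near 18050000 to 19250000 fragments (65.4% to 68.5% of low values were whole within 0.15, where chance gives 30%), which is an estimate and not a count. Over 2-fold differences were found for 200 of 12672 genes between the wild-type and 78 of 12804 between the knockout libraries. Positions are from GENCODE vM21 on GRCm38. Genes named are the members, Zbtb20, called and lowest-p genes of each list, the most abundant and called markers, and the nearest profiles. Other paralogs and markers were chosen after their values were seen. A few genes under this rule are not reported here. Of the listed genes, Dnajc5g, Fer1l6 and Camlg had no value, and Myo15 and Myo15a are names of 1 gene.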

Additional observations from a re-analysis of the deposited data

How the results depend on the processing

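The directions of the log2 fold changes of all 7 tested members held in every alternative in which they were tested (11 for Otof, Slc17a8, Cabp2, Cacna1d and Atp2a3, 9 for Bsn and Rims2). None but Atp2a3 was called in any. For Otof, Slc17a8, Atp2a3 and Cacna1d the groups did not overlap, so leaving out a library could not reverse the direction. Bsn and Rims2 were untested without wild-type replicate 3 and at the minimum of 1 FPKM. Without that replicate Rims2 was higher in the knockout, at a mean of 0.525 FPKM against 0.42 FPKM in wild-type replicate 2. The members called numbered 1, and 0 without the filter on low values, where Atp2a3 stayed at -0.73 and 266 of all genes and 3 of the related lists' genes were called. Without 1 library at a time, 0 members were called, with all genes called 1 to 580, the related lists' calls 0 to 9 and Atp2a3 -0.86 to -0.6. With the replicate number as a block, 2353 of all genes and 33 of the related lists' genes were called against 618 and 5, with 1 member called, Otof at adjusted p = 0.0518 and Slc17a8 at 0.0642. The numbers do not mark a known pairing. The replicate difference correlated at 0.403 across genes between genotypes. Of the 9 members, 5 had groups that did not overlap, 5 after median-of-ratios rescaling, and 8 without wild-type replicate 2, when 1 wild-type library is left (alternatives chosen after seeing the data). The shares of all genes with a value were 49.4%, 47.9% and 73.8%. Rescaling moved the median of all tested genes from 0.064 to -0.001. With an arm of 1 library, its spread is assumed like that of the other group. Depth limits Dnajc5b, at 0 to 5 estimated fragments.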
